A study of Mus musculus with 18 samples.

Results

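During the conversion of pre-B cells into macrophages, PU.1 rose from low values at positions where C/EBPα stayed low in every library. These positions comprised 391 bins of 200 bp, of 12361722 bins on mouse chromosomes 1 to 19. They were chosen from the reads themselves. With 1 read kept per position and strand, 5′ ends moved 75 bp inward and libraries scaled to 10000000 reads, a bin was taken when PU.1 reached 15 or more at both 24 and 48 hours post-induction (hpi) and lay at 3 or less at 0 hpi, and when C/EBPα lay at 5 or less in all 8 of its libraries. PU.1 at 0, 24 and 48 hpi and C/EBPα in the bin are therefore descriptions, whereas PU.1 at 3 and 12 hpi, C/EBPβ, the surroundings, the sequence and the nearby genes were not read for the choice. Of these, C/EBPβ, the surroundings and the C/EBP consensus are tied to the limit on C/EBPα, since both factors bind the same sequence and neighbouring bins share fragments. The cells were C10, a single line of Haftl pre-B cells that carries a C/EBPα-estrogen receptor fusion tagged with GFP, so that every library, including those of 0 hpi, came from cells with the transgene. β-estradiol moves the fusion into the nucleus. Induced cells were grown with IL-3 and CSF-1, and control cells received the ethanol solvent. ChIP-seq of C/EBPα was available for 0 hpi, 10, 30 and 60 min, and 3, 12, 24 and 48 hpi, and ChIP-seq of PU.1 and C/EBPβ for 0, 3, 12, 24 and 48 hpi. Each factor and time was represented by 1 library, so values are set side by side without tests. The 95% intervals (exact Poisson for reads, exact Clopper-Pearson for shares of bins) cover counting error only, and bins of 1 library are not replicates of a condition. No expression data were analysed here, so the cell type could not be checked against its marker genes.

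PU.1 is an Ets family transcription factor that recognises a purine-rich sequence with a GGAA core. It is needed for both B cells and macrophages, at higher levels in the latter, and opens regulatory elements together with partner factors. C/EBPα is a basic leucine zipper factor that instructs the myeloid fate, and C/EBPβ, a close relative, binds the same palindromic sequence. AP-1 is the name for dimers of Jun and Fos proteins, which bind many enhancers of activated and differentiated macrophages. RUNX factors, IRF proteins and Ebf1 are other known neighbours of PU.1 at hematopoietic enhancers.

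The libraries held 6575348 to 11349746 reads for PU.1, 5970869 to 24917810 for C/EBPα and 2903580 to 5844202 for C/EBPβ. A PU.1 value of 15 stood for 10 reads at 3 hpi and for 18 reads at 24 hpi, and a C/EBPα value of 5 allowed 2 reads at 12 hpi and 12 reads at 10 min. Among all bins, 0.0125% had gained PU.1 by the rule at 0, 24 and 48 hpi, and these were 6.05% of the 25618 bins with PU.1 at 15 or more at 24 and 48 hpi. Of the 1551 gained bins, 391 had C/EBPα at 5 or less throughout (25.2%), 462 had it at 15 or more in at least 1 library, and 698 lay between. These 462 bins, called gained with C/EBPα below, and 4574 bins with PU.1 at 15 or more at all 5 times and C/EBPα at 5 or less, called constant, serve as comparison. The 391 bins formed 379 loci when bins with at most 1 bin between them were joined. Low C/EBPα did not mean no reads, since no bin lacked a C/EBPα read in all 8 libraries, and the highest of the 8 values had a median of 3.35. At the edges of the rule, the lowest PU.1 at 48 hpi was 15.3 inside, as near *Tmem177*, and the highest outside was 14.3, as near *Speg*. For PU.1 at 24 hpi these values were 15.9, as near *Tmem177*, and 14.98, as near *Klf7*. For PU.1 at 0 hpi, 200 bins lay at the highest value inside, 2.84 (2 reads), and the first value outside was 4.25. For C/EBPα the values were 4.51 inside, near *Ndufa10*, and 5.02 outside, near *Eif5b*.

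The sequences of 8 of the 10 loci with the most PU.1 at 48 hpi are shown as examples. They are given on the plus strand of mm9, with matches to the PU.1 consensus (GAGGAAGT or its shorter core GGAAGT) and to the AP-1 consensus (TGAGTCA) on either strand in capitals.
Ppp2r2d locus, chr7:145950201-145950400: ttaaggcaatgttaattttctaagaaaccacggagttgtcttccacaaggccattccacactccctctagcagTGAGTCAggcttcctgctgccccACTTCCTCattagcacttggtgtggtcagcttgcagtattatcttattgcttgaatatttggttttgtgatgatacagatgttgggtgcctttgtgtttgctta
Myo5a locus, chr9:75044401-75044600: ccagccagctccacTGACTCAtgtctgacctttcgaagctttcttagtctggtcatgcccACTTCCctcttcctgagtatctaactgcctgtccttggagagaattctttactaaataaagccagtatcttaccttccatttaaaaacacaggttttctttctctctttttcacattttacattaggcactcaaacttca
Gm10287 locus, chr3:148903801-148904000: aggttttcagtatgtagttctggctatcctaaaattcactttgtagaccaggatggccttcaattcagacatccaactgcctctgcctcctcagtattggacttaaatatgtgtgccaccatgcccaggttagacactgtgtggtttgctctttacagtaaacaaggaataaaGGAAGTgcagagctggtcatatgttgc
Ccdc12 locus, chr9:110579401-110579600: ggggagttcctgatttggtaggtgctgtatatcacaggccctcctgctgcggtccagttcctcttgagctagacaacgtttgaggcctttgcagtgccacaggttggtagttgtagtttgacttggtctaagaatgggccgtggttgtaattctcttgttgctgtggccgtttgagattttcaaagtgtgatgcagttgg
Il1rap locus, chr16:26626401-26626600: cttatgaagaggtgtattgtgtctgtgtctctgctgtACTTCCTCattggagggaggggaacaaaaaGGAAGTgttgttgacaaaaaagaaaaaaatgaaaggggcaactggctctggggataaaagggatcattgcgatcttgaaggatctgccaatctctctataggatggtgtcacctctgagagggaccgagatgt
Eea1 locus, chr10:95651401-95651600: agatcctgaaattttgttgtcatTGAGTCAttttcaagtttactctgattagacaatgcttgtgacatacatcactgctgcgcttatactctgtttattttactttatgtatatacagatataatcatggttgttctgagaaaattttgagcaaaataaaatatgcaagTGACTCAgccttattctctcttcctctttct
Il22 locus, chr10:117616001-117616200: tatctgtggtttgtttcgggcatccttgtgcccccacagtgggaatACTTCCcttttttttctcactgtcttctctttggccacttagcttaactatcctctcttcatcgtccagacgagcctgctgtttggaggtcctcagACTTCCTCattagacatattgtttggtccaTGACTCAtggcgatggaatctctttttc
Mat2b locus, chr11:40212401-40212600: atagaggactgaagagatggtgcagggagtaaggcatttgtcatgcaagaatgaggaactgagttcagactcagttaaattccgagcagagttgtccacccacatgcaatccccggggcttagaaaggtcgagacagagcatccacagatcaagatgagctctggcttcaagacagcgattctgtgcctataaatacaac
Both consensus sequences stood together in the bins near *Ppp2r2d*, *Myo5a* and *Il22*. The bin near *Il1rap* had PU.1 matches alone, that near *Gm10287* a match to the shorter core alone, and that near *Eea1* 2 AP-1 matches and no PU.1 match. The bins near *Ccdc12* and *Mat2b* had none of these letters.

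The 10 loci with the most PU.1 at 48 hpi, which are ranked by a value that the rule used, had little PU.1 at 3 hpi. Near *Ppp2r2d*, which encodes a regulatory subunit of protein phosphatase 2A, a bin 87.5 kb upstream of the transcription start site (TSS) and outside genes held PU.1 at 2.84 at 0 hpi, 10.6 at 3 hpi, 29.9 at 12 hpi, 54.6 at 24 hpi and 91.7 at 48 hpi (96 reads, 95% interval 74.3 to 112). In an intron of *Myo5a*, the gene of an actin-based motor, 2.9 kb from the TSS, PU.1 was at 2.84, 9.12, 43.9, 32.6 and 81.2 at the same times. The bin in an intron of *Il1rap*, a co-receptor subunit for interleukin 1, 2.3 kb from the TSS, had no PU.1 read at 0 hpi and then 3.04, 23.3, 25.6 and 69.8. All 3 bins were low at 3 hpi and well above this at 12 hpi, and in each the value of 48 hpi was the highest. The bin 25.9 kb upstream of *Il22* read 2.84, 1.52, 38.3, 37.9 and 65.9. The bin 15.2 kb upstream of *Gm10287* had 1.42, 1.52, 15.9, 30.0 and 77.4. In an intron of *Ccdc12*, 20.5 kb from its TSS, PU.1 was at 1.42, 4.56, 26.1, 63.4 and 77.4. Over all 10 loci PU.1 was at 1.52 to 10.6 at 3 hpi and at 63.1 to 91.7 at 48 hpi. None of them was among the 5 loci with the most PU.1 at 3 hpi. Nothing is read from this, since sets of 10 and 5 among 379 loci would seldom overlap. At 3 hpi the 10 loci lay on both sides of 6.08, the median of the 391 bins. C/EBPα of 15 or more lay within 1000 bp of 3 of the 10, with 19.8 near *Il1rap*, 15.4 near *Gm10287* and 26.4 near *Eea1*, and C/EBPβ at 48 hpi reached 31.5, 11.8 and 57.1 within the same distance.

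**Figure D1:**
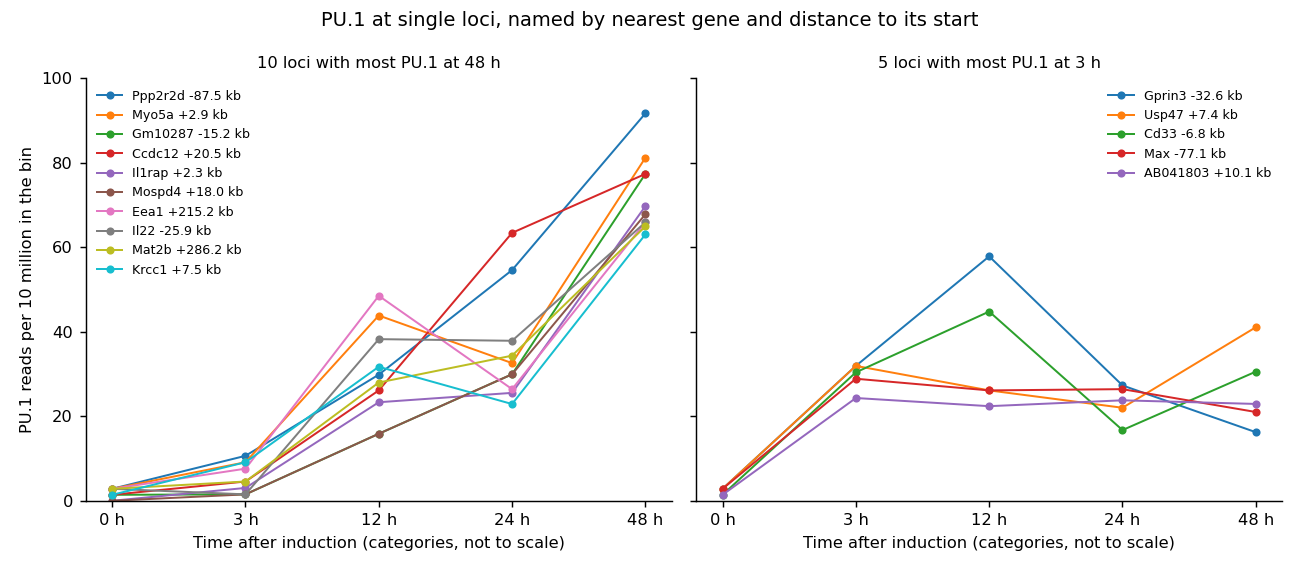
PU.1 reads in single 200-bp bins, scaled to 10000000 reads per library (y axis), at 5 times after induction (x axis, categories not to scale), with 1 line per locus named by the nearest gene and the distance in kb to its TSS (minus: upstream). The 10 loci on the left, ranked by 48 hpi, lie between 63.1 and 91.7 at that time. The 5 loci on the right, ranked by 3 hpi, lie between 24.3 and 31.9 then and between 16.2 and 41.1 at 48 hpi.

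The 5 loci with the most PU.1 at 3 hpi followed other courses. Nothing is read from this contrast, since each set was ranked by its own time, 48 hpi or 3 hpi. Near *Gprin3*, 32.6 kb upstream, PU.1 was at 2.84, 31.9, 57.9, 27.3 and 16.2 at 0, 3, 12, 24 and 48 hpi, so that it was highest at 12 hpi. C/EBPα reached 34.3 within 1000 bp of this bin. At *Cd33*, which encodes a Siglec family receptor of myeloid cells, a bin 6.8 kb upstream had 1.42, 30.4, 44.8, 16.7 and 30.6, with C/EBPα at no more than 5.39 within 1000 bp. In an intron of *Usp47*, a deubiquitinase gene, 7.4 kb from the TSS, the values were 2.84, 31.9, 26.1, 22.0 and 41.1. The 2 others, near *AB041803* and *Max*, stayed between 21.0 and 28.9 from 3 hpi on. The bin near *Max*, whose protein is the partner of Myc, had a PU.1 value of 95 at 0 hpi within 1000 bp, so that this gain lay beside a site that was strong before induction.

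Across all 391 bins, PU.1 was still low at 3 hpi and had passed 15 in most by 12 hpi. At 3 hpi PU.1 ranged from 0 to 31.9 with a median of 6.08, and 31 bins (7.93%, interval 5.45 to 11.1) were at 15 or more, compared with 79.6% of all bins with PU.1 at 24 and 48 hpi. At 12 hpi it ranged from 1.87 to 57.9 with a median of 16.8, and 226 bins (57.8%, 52.7 to 62.7) had passed 15, compared with 93.4% of all such bins. Nothing is read from these gaps, since 68.6% of all such bins were at 15 or more already at 0 hpi, where the rule holds the 391 bins to 3 or less. Among bins under the same limit at 0 hpi, those gained with C/EBPα had larger shares, with 30.1% (25.9 to 34.5) at 15 or more at 3 hpi and 81.8% (78.0 to 85.2) at 12 hpi. For the bins in between the shares were 10.3% (8.16 to 12.8) and 66.5% (62.8 to 70.0). The intervals of the bins without and with C/EBPα did not overlap at either time. Of the 391 bins, 163 (41.7%, 36.8 to 46.8) first reached 15 at 24 hpi, compared with 81 of 462 (17.5%, 14.2 to 21.3) of those gained with C/EBPα. The mean over the 391 bins went from 1.95 at 0 hpi to 6.77 at 3 hpi, 18.6 at 12 hpi, 22.1 at 24 hpi and 28.1 at 48 hpi, and in 374 bins (95.7%) the value of 12 hpi exceeded that of 3 hpi, as in 94.6% of those gained with C/EBPα and 97.6% of those in between. Bins gained with C/EBPα had means of 1.69, 11.9, 28.2, 27.0 and 33.4 at these times, and constant bins 47.4, 47.0, 45.0, 33.4 and 43.0. The bins gained with C/EBPα thus held more PU.1 at 3, 12, 24 and 48 hpi. Passing a fixed value of 15 therefore does not separate an earlier course from a higher level. The 391 bins were low but not empty of PU.1 at 0 hpi, when the mean over all bins was 0.790. Around their PU.1 summits of 24 and 48 hpi, coverage at 0 hpi was 3.12 at the summit and 0.844 at 1500 to 2000 bp. This ratio was 3.69, and 2.17 at loci gained with C/EBPα. The share of the 391 bins at 15 or more at 3 hpi rested on few reads per bin and moved between 3.96% and 12.2% with the processing. With the PU.1 and C/EBPα libraries each thinned to their smallest, 48.9% of the bins found anew were at 15 or more at 12 hpi, against 75.4% of those gained with C/EBPα.

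**Figure D2:**
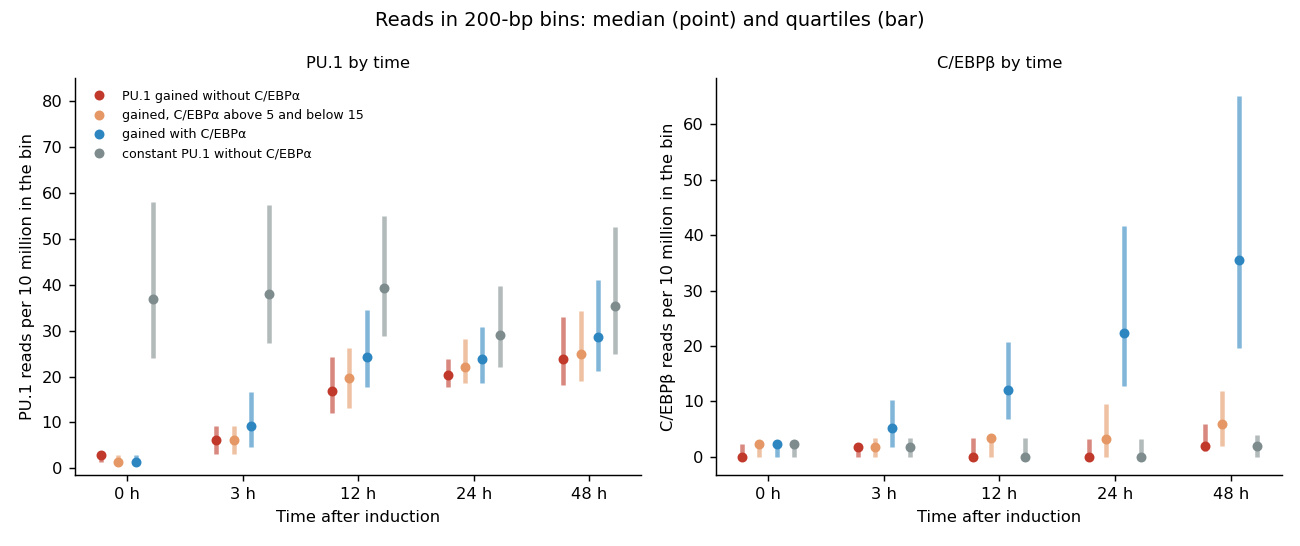
PU.1 (left) and C/EBPβ (right) reads in 200-bp bins, scaled to 10000000 reads per library (y axes), by time after induction (x axes), as the median (point) and the quartiles (bar) over 391 bins gained without C/EBPα, 698 in between, 462 gained with C/EBPα and 4574 constant bins. PU.1 at the bins without C/EBPα has a median of 6.08 at 3 hpi and 16.8 at 12 hpi, and their C/EBPβ median stays at 1.97 or below, while it reaches 35.5 in the bins gained with C/EBPα.

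C/EBPβ, whose reads the choice of bins did not use although it binds the same sequence as C/EBPα, was also low in these bins and slightly higher at 48 than at 0 hpi. Its mean over the 391 bins was 1.54 (interval 1.36 to 1.74) at 0 hpi, 1.30 (1.16 to 1.46) at 3 hpi, 1.98 (1.73 to 2.26) at 12 hpi, 2.5 (2.22 to 2.79) at 24 hpi and 3.79 (3.52 to 4.07) at 48 hpi. The ratio of 48 to 0 hpi was 2.46 (2.13 to 2.84), from 258 to 752 reads in libraries of 4283178 and 5075832 reads. The same ratio was 3.09 (3.06 to 3.13) over all bins with PU.1 at 24 and 48 hpi, above that of the 391 bins, and 1.32 (1.27 to 1.38) at constant bins, 5.07 (4.62 to 5.56) at the bins in between and 21.4 (19.5 to 23.6) at bins gained with C/EBPα. C/EBPβ of 15 or more at 48 hpi occurred in 7 of the 391 bins (1.79%, 0.723 to 3.65), compared with 16.1% of all bins with PU.1 at 24 and 48 hpi, 84.6% (81.0 to 87.8) of those gained with C/EBPα and 0.437% (0.267 to 0.674) of constant bins. At 24 hpi 4 bins had reached this value (1.02%, 0.279 to 2.60), compared with 12.8% of all such bins, and at 0, 3 and 12 hpi none of the 391 had, which allows a share of up to 0.939%, compared with 1.77%, 6.0% and 7.32%. The 7 bins of 48 hpi held 10.1% of the C/EBPβ reads, and the mean at 48 hpi without them was 3.47 (3.21 to 3.74). The highest value was at an intronic bin of *Nedd4l*, a ubiquitin ligase gene, 51.1 kb from its TSS. There C/EBPβ was at 4.67, 1.71, 3.44, 0 and 35.5 at 0, 3, 12, 24 and 48 hpi, and PU.1 at 0, 6.08, 15.9, 16.7 and 16.2. Within 1000 bp of it C/EBPβ at 48 hpi reached 43.3 and C/EBPα 12.6. The next 4 bins held 17.7 to 23.6 at 48 hpi, and at all 5 bins C/EBPα stayed at 4.51 or less, within the limit of the rule. Within 1000 bp C/EBPα was at 5.27 to 6.28 beside 3 of these 4, whereas it reached 29.0, and C/EBPβ at 48 hpi 78.8, beside the other, near *Zfp608*. In the means of coverage around the PU.1 summit, C/EBPβ at 48 hpi was 3.75 at the summit and 1.34 at 1500 to 2000 bp from it, a ratio of 2.79. C/EBPα at 48 hpi was 2.01 at the summit and 1.15 in the surroundings, a ratio of 1.75, within the limit that the rule sets on the bin. At constant bins, which are under the same limit on C/EBPα, the ratios were 2.17 for C/EBPβ and 1.61 for C/EBPα. At bins gained with C/EBPα they were 24.98 for C/EBPβ and 20.7 for C/EBPα. The share of bins with C/EBPβ at 15 or more ranged from 0.617% to 7.55% over the alternative settings.

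**Figure D3:**
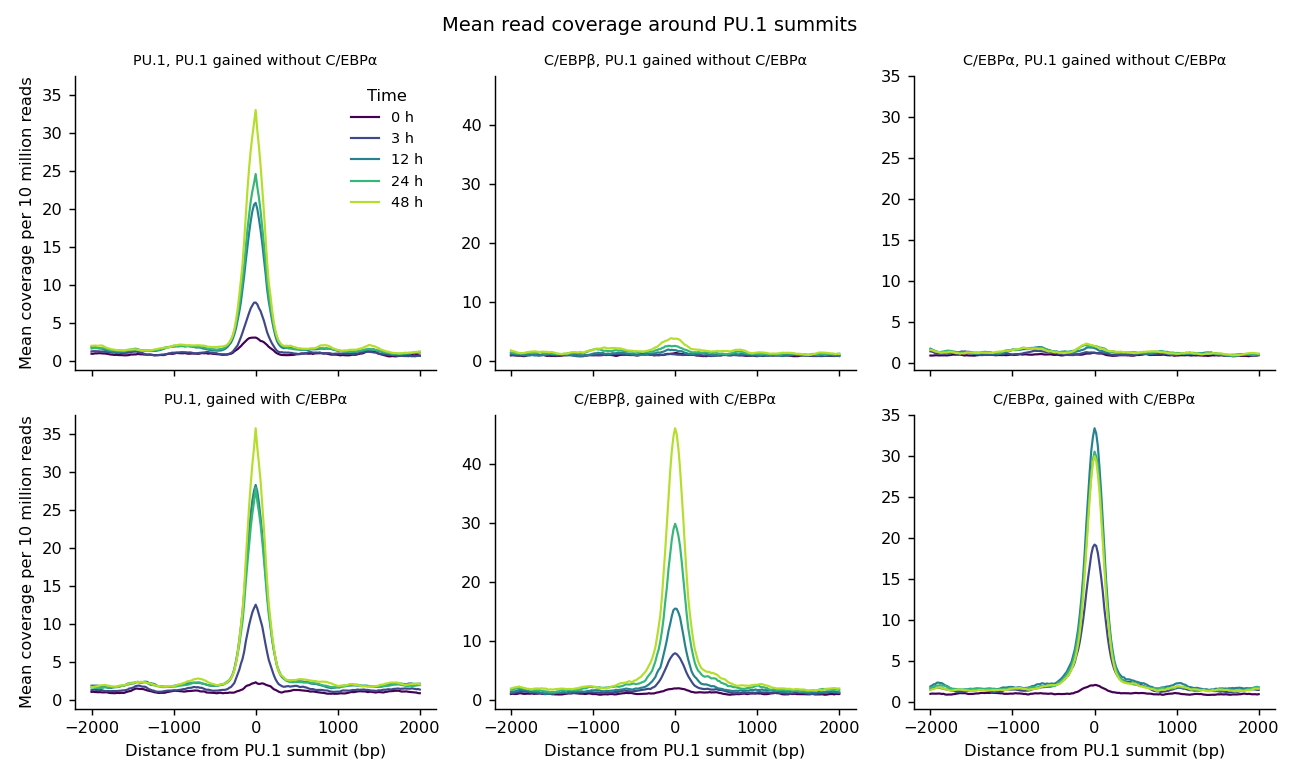
Mean coverage of reads extended to 150 bp, scaled to 10000000 reads (y axis), by distance from the PU.1 summit of 24 and 48 hpi in bp (x axis), for PU.1, C/EBPβ and C/EBPα at 5 times (lines), over 379 loci gained without C/EBPα (top) and 412 gained with C/EBPα (bottom). PU.1 reaches 33.0 in the top and 35.8 in the bottom row at 48 hpi, whereas C/EBPβ reaches 3.75 in the top and 46.1 in the bottom row.

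The rule limits C/EBPα in the bin and thereby also affects its surroundings, so that constant bins, which are under the same limit, are the nearest comparison. A bin with C/EBPα of 15 or more in at least 1 library lay within 1000 bp of 41 of the 391 bins (10.5%, 7.63 to 14.0). This was so for 29.4% of all bins with PU.1 at 24 and 48 hpi, 9.62% (8.78 to 10.5) of constant bins and 65.6% (61.1 to 69.9) of those gained with C/EBPα. The share was 6.65% within 600 bp and 15.9% within 2000 bp, and 20.2% when a value of 10 sufficed. C/EBPβ of 15 or more at 48 hpi lay within 1000 bp of 61 bins (15.6%, 12.1 to 19.6), above the 6.91% (6.19 to 7.68) of constant bins. This share was 22.5% (22.0 to 23.0) of all bins with PU.1 at 24 and 48 hpi. It was 27.7% (24.4 to 31.1) of those in between and 69.3% (64.8 to 73.4) of those gained with C/EBPα. On a larger scale, 107 bins (27.4%, 23.0 to 32.1) had C/EBPα of 15 or more at 48 hpi within 10 kb, compared with 12.6% (11.7 to 13.6) of constant bins and 31.0% (30.4 to 31.5) of all bins with PU.1 at 24 and 48 hpi. The median distance to such a bin was 36800 bp, near the 38000 bp for all bins with PU.1 at 24 and 48 hpi, and compared with 86700 bp for constant bins and 22500 bp for the bins in between. These values depend on the library. When C/EBPα of 15 or more in any library counted, 43.99% of the 391 bins had it within 10 kb. This share was 37.5% of constant bins and 59.8% of all bins with PU.1 at 24 and 48 hpi. The median distance was then 12800 bp, compared with 18000 bp for constant bins, 9200 bp in between and 5000 bp for all such bins. The gap to constant bins was thus smaller, and the distance was above that of all such bins. PU.1 of 15 or more at 0 hpi lay within 1000 bp of 36 bins (9.21%, 6.53 to 12.5), compared with 6.71% (4.60 to 9.39) of those gained with C/EBPα and 7.45% (5.61 to 9.65) of those in between, which are under the same limit on PU.1 at 0 hpi, with overlapping intervals. The share was 58.5% of all bins with PU.1 at 24 and 48 hpi, which are not under this limit, so that nothing is read from that gap. Leaving out bins with either neighbour left 319, of which 5.33% had PU.1 at 15 or more at 3 hpi.

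The sequence of the bins combined a frequent PU.1 consensus with a frequent AP-1 consensus. The longer PU.1 consensus GAGGAAGT was present in 89 of the 391 bins (22.8%, 18.7 to 27.2), against 9.98% (7.40 to 13.1) of those gained with C/EBPα, 14.2% (11.7 to 17.0) of those in between, 26.9% (25.6 to 28.2) of constant bins, 21.9% (21.4 to 22.4) of all bins with PU.1 at 24 and 48 hpi and 1.2% of all bins. The share in bins without C/EBPα was thus above that in bins gained with C/EBPα, and close to that in all bins with PU.1 at 24 and 48 hpi. Its interval overlapped that of constant bins, but not on a grid moved by 100 bp (20.8%, 17.2 to 24.9, against 27.9%, 26.6 to 29.2), with thinned libraries (18.1%, 13.3 to 23.7, against 28.3%, 26.7 to 29.9) and with several other settings. When libraries were scaled to their reads in low bins, it was 14.8%, against 7.25% with C/EBPα and 26.8% in constant bins. The AP-1 consensus TGAGTCA was in 71 bins (18.2%, 14.5 to 22.3), nearly the same share as in the bins gained with C/EBPα (17.6%, 14.2 to 21.4) and in between (21.1%, 18.1 to 24.3). In constant bins this share was 4.55% (3.96 to 5.19), in all bins with PU.1 at 24 and 48 hpi 7.84% (7.51 to 8.17), and in all bins 3.14%. The C/EBP consensus TTGCNNAA was in 32 bins (8.18%, 5.67 to 11.4), close to the 9.28% of all bins, compared with 32.5% (28.3 to 37.0) of those gained with C/EBPα and 6.60% (5.90 to 7.36) of constant bins. Since C/EBPα reads entered the rule, the low share of the C/EBP consensus is not independent of the choice. Only 17 bins had both the longer PU.1 and the AP-1 consensus, at a median distance of 29.5 bp between their middles, and the AP-1 share was 19.1% (11.5 to 28.8) in bins with the longer PU.1 consensus and 17.9% (13.7 to 22.7) in the others. The shorter core GGAAGT, which the longer one contains, was in 51.9% (46.8 to 57.0) of the bins and 11.3% of all bins. Neither this core nor AP-1 was in 157 bins (40.2%).

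The other consensus sequences stood out less. The composite sequence of PU.1 with an IRF, GGAANNGAA, was in 9.97% (7.19 to 13.4) of the bins, below the 15.4% (14.4 to 16.5) of constant bins. All bins with PU.1 at 24 and 48 hpi had 13.7% (13.2 to 14.1), with overlapping intervals. The share was above the 6.4% of all bins and near the 9.76% (7.21 to 12.8) of those gained with C/EBPα. The RUNX consensus TGTGGTT was in 6.39% (4.18 to 9.29) of the bins and 4.73% of all bins, and that of GATA factors, AGATAA, in 10.2% and 13.2%. In all bins with a GC content within the quartiles of the members, RUNX was in 4.85% and GATA in 9.42%. The EGR consensus GTGGGCGG reached 4.26 times its share in all bins, but this rested on 3 of the 391 bins (0.767%). In all, 20 consensus sequences were searched on both strands. The median GC content of the bins was 47.0%, compared with 47.5% for those gained with C/EBPα, 44.5% for constant bins and 42.0% for all bins. Relative to all bins with a GC content within the quartiles of the members, the longer PU.1 consensus was 15.3 times and AP-1 4.97 times as frequent. Words of 8 letters found in at least 2% of the bins, 1508 in all, were ranked by the ratio to all bins with PU.1 at 24 and 48 hpi. Of the first 8, GTGAGTCA, which contains the AP-1 consensus, was in 32 bins (8.18% against 2.18%), and the other 7, such as TAATTCAA and TGGTCAAA, were in 8 to 10 bins each.

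**Figure D4:**
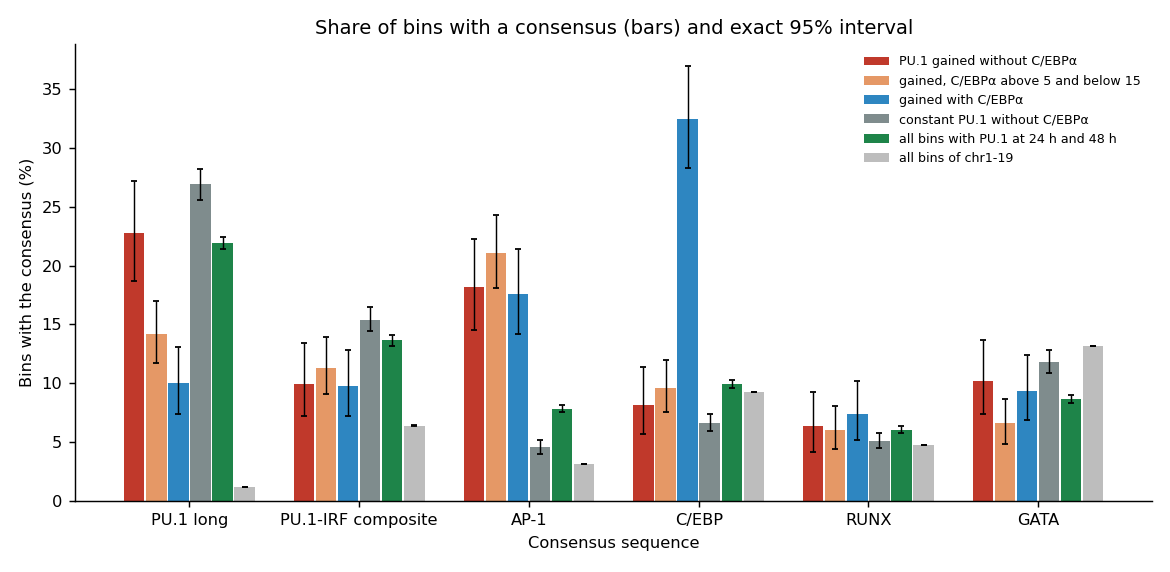
Share of 200-bp bins with each consensus sequence on either strand in percent (y axis; bars, with exact 95% intervals of counting error) for 6 consensus sequences (x axis) in bins gained without C/EBPα, in between, gained with C/EBPα, constant bins, all bins with PU.1 at 24 and 48 hpi and all bins. The bins without C/EBPα hold the longer PU.1 consensus at 22.8% and AP-1 at 18.2%, whereas constant bins hold AP-1 at 4.55%.

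The PU.1 consensus lay closer to the summit than AP-1. Within 25 bp of the summit, taken from PU.1 reads of 24 and 48 hpi together, 77 of the 379 loci (20.3%, 16.4 to 24.7) had the longer PU.1 consensus, and only 27 further loci (7.12%) had their nearest one 51 to 100 bp away. AP-1 lay within 25 bp at 34 loci (8.97%, 6.29 to 12.3) and within 100 bp at 88 (23.2%, 19.1 to 27.8). Its median distance from the summit among those within 100 bp was 36.5 bp, against 17.5 bp for the longer PU.1 consensus. The order was the same in the comparison groups, with 43 against 27.5 bp at loci gained with C/EBPα and 45 against 14.5 bp at constant loci. At constant loci AP-1 lay within 100 bp at 5.61% (4.91 to 6.37), and at loci gained with C/EBPα at 18.4% (14.8 to 22.5).

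At 12 hpi, a time that the rule did not use, bins with the AP-1 consensus had less PU.1 than the others. Their median PU.1 was 1.42 at 0 hpi, 4.56 at 3 hpi, 14.0 at 12 hpi, 19.4 at 24 hpi and 28.7 at 48 hpi, whereas that of the 320 bins without it was 2.84, 6.08, 17.7, 20.3 and 22.9. The medians of 0, 3 and 24 hpi differ by 1 read. The value of 48 hpi exceeded that of 12 hpi in 69 of the 71 bins with AP-1 (97.2%, 90.2 to 99.7) and in 236 of 320 without (73.8%, 68.6 to 78.5). The share was 42.8% of all bins with PU.1 at 24 and 48 hpi. Nothing is read from that gap, since those bins are not held to 3 or less at 0 hpi. A bin below 15 at 12 hpi is by the rule higher at 48 hpi, so a split at 15 repeats this comparison in part. AP-1 was found in 12.4% (8.39 to 17.4) of the bins that had reached 15 by 12 hpi and in 26.1% (19.5 to 33.5) of the others. The intervals overlap for the bins in between (20%, 16.5 to 24.0, and 23.1%, 17.8 to 29.0) and for those gained with C/EBPα (16.7%, 13.1 to 20.8, and 21.7%, 13.4 to 32.1). For the longer PU.1 consensus these shares were 23.5% (18.1 to 29.5) and 21.8% (15.8 to 28.9). Among bins in between, 82.3% (75.2 to 88.1) of those with AP-1 and 68.6% (64.5 to 72.5) of those without were higher at 48 than at 12 hpi. For bins gained with C/EBPα the shares were 66.7% (55.3 to 76.8) and 64.0% (59.0 to 68.9), whose intervals overlap. The values of 48 hpi took part in the choice of the bins, but the consensus did not. The difference was smaller when the grid was moved by 100 bp, with 89.0% (80.2 to 94.9) against 79.7% (75.2 to 83.7) higher at 48 hpi, whose intervals overlap. They also overlap with thinned libraries, with PU.1 of 20 or more and with C/EBPα of 3 or less. The AP-1 shares of bins below and at 15 or more at 12 hpi were 20.1% (15 to 26.0) and 16.4% (11.9 to 21.8) on the moved grid and 15.5% (9.46 to 23.4) and 12.6% (7.07 to 20.3) with thinned libraries, again with overlapping intervals. These intervals also overlap with PU.1 of 20 or more, C/EBPα of 3 or less, PU.1 of 1.5 or less at 0 hpi, and scaling to reads in low bins or on chromosomes 1 to 19.

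**Figure D5:**
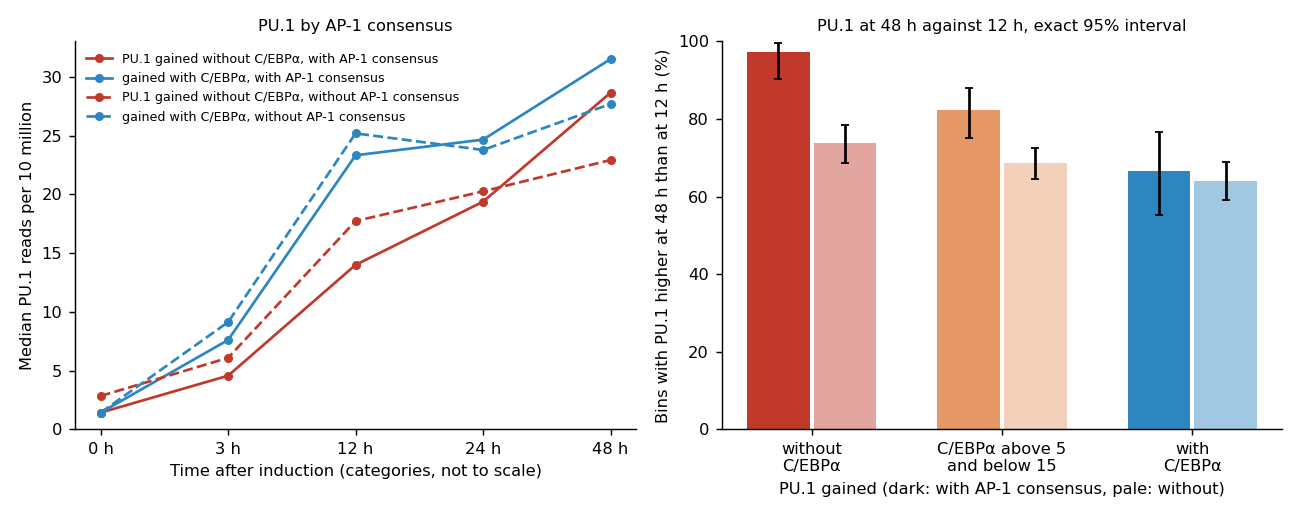
Left, median PU.1 reads scaled to 10000000 (y axis) by time after induction (x axis, categories not to scale) in bins with (solid) and without (dashed) the AP-1 consensus, gained without C/EBPα (red) and with it (blue). Right, share of bins in percent with PU.1 higher at 48 than at 12 hpi (y axis) for the 3 groups of gained bins (x axis), with AP-1 (dark) and without (pale) and exact 95% intervals of counting error, which reads 97.2% and 73.8% for the bins without C/EBPα.

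Most of the bins lay away from promoters. Of the 391, 207 (52.9%, 47.9 to 58.0) had their middle in an intron of a protein-coding gene, 166 (42.5%, 37.5 to 47.5) outside such genes, 7 in a coding exon, 5 in a UTR and 6 in another exon. Within 1 kb of a protein-coding TSS lay 34 bins (8.70%, 6.10 to 11.9), compared with 9.09% (6.63 to 12.1) of those gained with C/EBPα, 10.0% (9.16 to 10.9) of constant bins and 16.4% (15.9 to 16.8) of all bins with PU.1 at 24 and 48 hpi. The median distance to the nearest TSS was 12444 bp, near the 11016.5 bp of all bins with PU.1 at 24 and 48 hpi. It was 13020 bp for bins gained with C/EBPα and 14547 bp for constant bins. In an intron lay 44.8% (40.2 to 49.5) of bins gained with C/EBPα and 50.0% (48.5 to 51.5) of constant bins, with intervals that overlap that of the 391. The 379 loci were nearest to 355 genes, of which 332 had 1 locus, 22 had 2 and *Gm826* had 3. Genes with 2 loci included *Nod1*, a sensor of bacterial cell wall fragments, *Btg1*, an antiproliferative gene, and *Foxp1*, a transcription factor gene. These 3 were picked after their values were seen.

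Genes of the lists were nearest to these sites at the background rate. The 9 lists, 8 of macrophage genes and 1 of B-lineage genes with 325 genes in the annotation, were hit by 23 bins (5.88%, 3.77 to 8.70). This was near the 6.14% (5.85 to 6.44) of all bins with PU.1 at 24 and 48 hpi. Bins gained with C/EBPα had 10.4% (7.76 to 13.5), with overlapping intervals. The share was 11.7% (9.45 to 14.4) in between and 4.31% (3.74 to 4.94) in constant bins. Macrophage surface receptors were nearest to 2 bins (0.512%, 0.0620 to 1.84), compared with 0.749% (0.648 to 0.863) of all bins with PU.1 at 24 and 48 hpi, 0.262% (0.136 to 0.458) of constant bins and 4.11% (2.49 to 6.35) of bins gained with C/EBPα. One of them was in an intron of *Tlr4*, the receptor for lipopolysaccharide, 2.5 kb from the TSS (chr4:66491601-66491800), with PU.1 at 2.84, 16.7, 24.3, 24.7 and 33.4 at 0, 3, 12, 24 and 48 hpi. The other was in an intron of *Cd36*, a scavenger receptor gene, 10.3 kb from the TSS (chr5:17384401-17384600), with 2.84, 7.60, 31.7, 20.3 and 26.8. C/EBPα was at no more than 3.77 in the bin and 4.51 within 1000 bp at *Tlr4*, and at no more than 3.95 in both at *Cd36*. Farther out, C/EBPα of 15 or more at 48 hpi lay 3200 bp from the *Tlr4* bin and 1800 bp from the *Cd36* bin. The median of this distance over the 391 bins was 36800 bp. No B-lineage gene was nearest to any of the 391 bins, which allows a share of up to 0.939% (exact upper limit), and 0.570% of all bins with PU.1 at 24 and 48 hpi had one.

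Secreted signals were nearest to 5 bins (1.28%, 0.416 to 2.96), with 0.422% (0.346 to 0.509) among all bins with PU.1 at 24 and 48 hpi, 1.08% (0.352 to 2.51) among bins gained with C/EBPα and 1.58% (0.789 to 2.80) among those in between. The bin 28.6 kb upstream of *Il1a* (chr2:129164201-129164400) had PU.1 at 2.84, 6.08, 27.1, 26.4 and 38.2, and that 23.0 kb from the TSS of *Il6* (chr5:30362601-30362800) was highest at 12 hpi, with 1.42, 13.7, 33.6, 19.4 and 20.1. The bin 18.5 kb from the TSS of *Il10* (chr1:132934801-132935000), an anti-inflammatory cytokine gene, had 2.84, 3.04, 12.1, 20.3 and 20.1. At *Lif*, a cytokine of the interleukin 6 family, a bin 42.8 kb from the TSS reached 58.3 at 48 hpi, with C/EBPα of 31.8 within 1000 bp. At *Il1b*, an inflammatory cytokine gene named after its values were seen as the last of the 5, the bin lay upstream of the gene (chr2:129207001-129207200) and had 1.42, 6.08, 18.7, 15.9 and 15.3. All 5 were outside genes. The highest value was at 12 hpi for *Il6* and *Il1b* and at 48 hpi for *Il1a* and *Lif*. The intervals of 12 and 48 hpi overlapped for *Il6* (23.5 to 46.5 and 12.4 to 30.7) and for *Il1a* (18.1 to 38.9 and 27.3 to 52.0). They did not for *Lif* (17.4 to 37.8 and 44.6 to 74.9), and the values of *Il1b* lay close together.

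Cytoskeleton and motility genes were nearest to 6 bins (1.53%, 0.565 to 3.31), with 0.839% (0.731 to 0.959) among all bins with PU.1 at 24 and 48 hpi, 0.649% (0.134 to 1.89) among bins gained with C/EBPα and 1.15% (0.496 to 2.25) among those in between. Beside *Myo5a* they included *Dock2* and *Elmo1*, which act together in Rac activation, and *Tiam1*, another Rac activator. The bin in an intron of *Dock2* (chr11:34591801-34592000), 5.5 kb from the TSS, had PU.1 at 1.42, 4.56, 17.7, 25.6 and 54.5. That in an intron of *Elmo1* (chr13:20184201-20184400), 1.8 kb from the TSS, had 1.42, 4.56, 15.9, 18.5 and 26.8. In an intron of *Tiam1* (chr16:89973601-89973800), 0.4 kb from the TSS, PU.1 had no read at 0 and 3 hpi and was then at 6.53, 17.6 and 27.7. In these 3 no value was below that of the time before, unlike in *Myo5a*. The other two bins of the list, near *Myo1e* and *Dock8*, ended at 20.1 and 18.2 at 48 hpi. Transcription factor genes of macrophages were nearest to 4 bins (1.02%, 0.279 to 2.60; all bins with PU.1 at 24 and 48 hpi 1.26%). At *Bcl6*, a repressor gene, a bin 4.4 kb upstream had 1.42, 19.8, 27.1, 30.0 and 17.2, and PU.1 at 0 hpi was at 15.6 within 1000 bp. In a coding exon of *Bhlhe40*, 4.0 kb from the TSS, PU.1 was at 2.84, 15.2, 29.9, 19.4 and 22.0. The others were 28.6 kb upstream of *Nfe2l2*, the main regulator of the antioxidant response, and in an intron of *Prkch*, 128.3 kb upstream of *Hif1a*, the hypoxia factor, with 15.3 and 17.2 at 48 hpi.

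The remaining lists had 1 or 2 bins each. Adhesion and lipid genes were each nearest to 0.512% of the bins, with 0.386% and 0.383% among all bins with PU.1 at 24 and 48 hpi, and lysosome and signalling genes each to 0.256%, with 0.527% and 1.03%. The intervals of all 4 shares include the background. The adhesion receptor gene *Cd44* had both bins of its list, with PU.1 at 2.84, 6.08, 15.9, 25.6 and 28.7 in an exon 49.0 kb from the TSS, and 2.84, 1.52, 22.4, 19.4 and 26.8 at a position 72.5 kb upstream, where PU.1 at 0 hpi was at 22.7 within 1000 bp. Lipid genes were represented by *Alox5*, which encodes the enzyme that starts leukotriene synthesis, and *Scd2*, a desaturase gene. Both ended at 15.3 at 48 hpi, but the bin in an intron of *Alox5* held only 5.60 at 12 hpi, when that in a coding exon of *Scd2* held 27.1. The protease gene *Adam8* had PU.1 at 2.84, 0, 12.1, 25.6 and 25.8 in an intron 0.8 kb from the TSS, and *Map3k8*, a kinase gene of Toll-like receptor signalling, 2.84, 3.04, 17.7, 17.6 and 30.6 at 31.9 kb from the TSS.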

How the data were processed

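ChIP-seq reads of C10 cells were analysed for C/EBPα (8 libraries), C/EBPβ (5) and PU.1 (5), grouped by factor and time as the labels give them, with 1 library per group. Alignment to mm9 was done by the authors, with ELAND for some libraries and Bowtie for others, at perfect matches only. Per the methods, ambiguous and repeated reads had been filtered out, although some repeated positions remained in the files. The submitters' processing notes also name HOMER. The aligner of each library and its version are not given in the sources used here. The authors deposited 1 line per read with its position and strand, with no normalization and no input library used here. For PU.1 at 0 hpi the reads are described as merged, without saying from what, and were taken as 1 library. The labels and the methods give different concentrations of β-estradiol. C/EBPα libraries of 10, 30 and 60 min had reads of 50 bases from another sequencer, the other C/EBPα and the PU.1 libraries 36 bases, and C/EBPβ 40 bases.

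The members and lists were chosen with earlier results of these data known. One read was kept per position and strand, which removed 2.51% of the C/EBPα library of 3 hpi and at most 0.188% of others. One line without a position, and 8859 to 14580 reads on unplaced contigs in each PU.1 library, were left out. Reads were moved 75 bp inward, counted in 200-bp bins of chromosomes 1 to 19 and scaled to 10000000 reads. Python 3.11.15, numpy 2.4.6, scipy 1.17.1 and pandas 2.3.3 were used, figures were drawn with matplotlib 3.10.9, and the steps were run on simulated data. The simulated libraries were of equal size and other thresholds were set, so this run does not test the rule at these read counts. Gene parts and TSSs of protein-coding genes came from GENCODE vM1 on the same build, bins were placed by their middle base, and coordinates count from 1. Consensus sequences were searched in bins without N. Summits were the highest coverage of reads extended to 150 bp. Repeat annotation was not used here. Named loci were the 10 with the most PU.1 at 48 hpi, the 5 each with the most PU.1 at 3 and 12 hpi and C/EBPβ at 48 hpi, up to 4 per gene list, and genes with 3 or more loci, and not all of them are described. *Il1b* was added outside this rule. The alternatives were other read shifts, another grid, other thresholds, thinned libraries and other scalings.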

Additional observations from a re-analysis of the deposited data

How the results depend on the processing

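No paired analysis was possible because each factor and time had 1 library and the labels give no replicate numbers. Libraries hold 0.881 to 3.44 scaled units per read for PU.1 and C/EBPβ, so a bin at 15 rests on 5 to 18 reads, which limits each single bin. Of 259 values under alternatives, 54 moved by more than their counting interval or, for counts of bins, by over 1.5 times. The others include values that an alternative cannot move, such as constant bins under another limit on PU.1 at 0 hpi. The scaling to reads on chromosomes 1 to 19 and the removal of bins with a strong neighbour were chosen after seeing the data. Directions held throughout the alternatives that gave both values: PU.1 at 15 or more was rarer without than with C/EBPα at 12 hpi, and the longer PU.1 consensus was more frequent.

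The number of bins was 162 with PU.1 of 20 or more, 149 with C/EBPα of 3 or less, 191 with PU.1 of 1.5 or less at 0 hpi and 227 with thinned libraries. The share with PU.1 of 15 or more at 3 hpi was 4.66% with 5′ ends moved 50 bp, 3.96% with thinned libraries, 12.2% with scaling to reads in low bins and 5.33% without bins with a strong neighbour. At 12 hpi it was 50.2% with 5′ ends moved 50 bp, 51.4% on a grid moved by 100 bp, 72.8% with PU.1 of 20 or more and 48.9% with thinned libraries. In bins gained with C/EBPα the share at 12 hpi was 91.1% with PU.1 of 20 or more, 77.7% with PU.1 of 1.5 or less at 0 hpi and 75.4% with thinned libraries. C/EBPβ of 15 or more at 48 hpi occurred in 0.617% of bins with PU.1 of 20 or more, 0.671% with C/EBPα of 3 or less and 7.55% with low-bin scaling. The C/EBPβ mean was 3.41 with 5′ ends moved 50 bp, 3.03 with C/EBPα of 3 or less and 4.9 with low-bin scaling. C/EBPα of 15 or more within 1000 bp was found for 7.09% of bins with 5′ ends moved 100 bp, 15.9% with low-bin scaling and, by construction, 0% without bins with a strong neighbour. It was 6.65% within 600 bp, 15.9% within 2000 bp and 20.2% for a value of 10 or more.

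The longer PU.1 consensus was in 18.1% of bins with thinned libraries and 14.8% with low-bin scaling, and in 7.25% of those gained with C/EBPα with the latter. In constant bins it was 25% with 5′ ends moved 50 bp, 29.6% with PU.1 of 20 or more, 30.5% with C/EBPα of 3 or less, 28.3% with thinned libraries and 30.0% with 1 bin per locus. AP-1 was in 14.1% of bins with thinned libraries. The C/EBP consensus was in 27.6% of bins gained with C/EBPα with low-bin scaling. With 100 bp added on each side, the shares without C/EBPα, with C/EBPα and in constant bins were 35.0%, 16.5% and 40.7% for the longer PU.1 consensus, 25.8%, 24.3% and 8.79% for AP-1, and 13.8%, 50.5% and 13.2% for the C/EBP consensus, as longer windows hold more matches. The ratio of the longer PU.1 consensus to all bins was 15.3 against bins of like GC content. PU.1 of 48 hpi exceeded that of 12 hpi in 89.0% of bins with AP-1 and 79.7% without on the moved grid, in 100% with AP-1 for PU.1 of 1.5 or less at 0 hpi, in 88.7% with AP-1 with low-bin scaling, and in 78.9% without AP-1 for PU.1 of 20 or more. AP-1 was in 15.5% of the bins below 15 at 12 hpi with thinned libraries. Bins within 1 kb of a TSS made up 6.04% with C/EBPα of 3 or less. The cause of these shifts was not tested.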

Other observations

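The bins per chromosome ranged from 7 on chromosome 14 to 31 on chromosome 6. Per Mb they ranged from 0.0559 on chromosome 14 to 0.244 on chromosome 16.

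The mean of C/EBPβ at 48 hpi was 4.5 (interval 3.83 to 5.24) at the 71 bins with AP-1 and 3.63 (3.35 to 3.94) at the 320 without, and 2.86 (2.38 to 3.39) at the 89 bins with the longer PU.1 consensus and 4.06 (3.75 to 4.4) at the 302 without, so that only the intervals of the latter pair did not overlap. PU.1 at 3 hpi was at 15 or more in 1 of the 89 bins with the longer PU.1 consensus (1.12%) and in 9.93% of the 302 others.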
